A study of Rattus norvegicus with 20 samples.

Results

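Aminoacyl-tRNA synthetases are the enzymes that join each amino acid to its transfer RNA before protein synthesis, and this account follows their messenger RNAs in rat liver under 4 dietary proteins. The members are 35 gene symbols, 19 of enzymes that work in the cytosol and 16 of enzymes that work in mitochondria, and a probe set belonged to a member when the platform annotation gave that symbol as its only gene. Of these, 33 were measured, on 50 probe sets, out of 13468 genes on 27702 probe sets tested. All 19 cytosolic enzymes were measured and 14 of the mitochondrial enzymes were, while no tested probe set listed Lars2 or Pars2 alone. Where a gene had several probe sets, the one brightest on average stands for it, and for Eprs1 all 4 are described.

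Livers came from male Sprague-Dawley rats that were 4 weeks old when obtained, ate a commercial diet for 5 days of adaptation and then an experimental diet for 21 days. The 1:1 high-isoflavone diet drew its protein equally from casein, the main milk protein, and Yukipirika, a soybean with a high content of isoflavones, the oestrogen-like compounds of soy. In the 3:1 high-isoflavone diet 3 parts came from casein and 1 part from Yukipirika, and in the conventional soybean diet the protein was drawn equally from casein and Fukuyutaka, a conventional cultivar. The casein diet held 200 g/kg casein and no soybean is named in it. The diets were given to 8, 7, 7 and 7 rats in that order, and 5 rats of each diet with an average food intake were put on arrays, 1 rat per array. Array titles and diet descriptions use different words, and were paired here by meaning.

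In the cytosol, 7 of the measured synthetases (Eprs1, Iars1, Kars1, Lars1, Mars1, Qars1 and Rars1) belong to a multi-synthetase complex in mammalian cells. When an amino acid runs short, uncharged transfer RNA activates the kinase GCN2, encoded by Eif2ak4, which phosphorylates the initiation factor eIF2. General translation then falls while translation of the transcription factor ATF4 rises, and ATF4 turns on genes of amino acid synthesis and transport and many genes of cytosolic synthetases. ATF4 acts with C/EBP proteins at a C/EBP-ATF response element, whose core was searched here as TGATGNAA.

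The core was looked for on both strands of the 300 bases from 250 before to 50 after each gene's start, taken from RefSeq with the GRCr8 build. Of the synthetases, 33 had such a window (Gars1 and Rars1 had none), and 7 held the core, against 3.98% of all 33469 windows and 4.16% of all 27457 genes with a window. The 7 were Aars1, Cars1, Iars1, Mars1, Nars1, Tars1 and Yars1, all of them cytosolic and all among the 12 genes with a window on a list of 13 cytosolic synthetases known as ATF4 targets. That list was compiled from knowledge of ATF4 and of such elements, so list and match are not independent of each other. The 30 bases around the match are shown for 6 of the 7, all but Aars1, because these genes return below as a set, with the match in capitals and each sequence read 5′ to 3′ on the strand that carries the core.
Cars1 (chr1:208225334-208225363, plus strand): tttccagaatcTGATGCAAccgcggcgccg
Iars1 (chr17:15193658-15193687, plus strand): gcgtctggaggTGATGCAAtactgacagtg
Mars1 (chr7:65023752-65023781, plus strand): ggagcccacgcTGATGCAAccggaacgggc
Nars1 (chr18:60275778-60275807, minus strand): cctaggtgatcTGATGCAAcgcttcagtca
Tars1 (chr2:62114811-62114840, plus strand): agctaaccagcTGATGCAAcgggacgccag
Yars1 (chr5:146820183-146820212, plus strand): cggagctacgagctcagcTGATGCAAcctg
All 6 matches shown read TGATGCAA. In the direction of the gene, they began 18 bases (Cars1) and 39 bases (Yars1) into the transcript, and 14 bases (Nars1), 17 bases (Mars1), 24 bases (Iars1) and 27 bases (Tars1) before its start. A match is a description of these letters and does not show binding.

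The values below are signals on the log2 scale, where a difference of 1 is a factor of 2. The median signal of an array was 2.45 to 2.57 in the 1:1 high-isoflavone rats, 2.43 to 2.52 in the 3:1 high-isoflavone rats, 2.51 to 2.56 in the conventional soybean rats and 2.43 to 2.49 in the casein rats, so every conventional soybean array lay above every casein array. The lowest log10 signal was higher on 2 arrays, casein rat 5 (0.134) and 3:1 high-isoflavone rat 1 (0.142), than on the other 18 (-0.468 to -0.265), and calls that end without them are named below. The mean signal of 7 hepatocyte markers was 8.66 ± 0.0814, 8.81 ± 0.0839 and 8.61 ± 0.0962 on the 1:1 high-isoflavone, 3:1 high-isoflavone and conventional soybean diets, against 8.84 ± 0.0476 on casein (SD, n = 5 each). For the 4 measured of 6 macrophage markers it was 4.18 ± 0.144, 4.42 ± 0.128 and 4.43 ± 0.348 in the same order, against 4.52 ± 0.214 on casein (SD, n = 5 each), and the part of either in the results was not tested. The hepatocyte mean leans on 1 marker, Tat, which differed from casein by -1.25 on the 1:1 high-isoflavone and -1.20 on the conventional soybean diet. Of the 7 hepatocyte markers, 4 lay above 0 on the 1:1 high-isoflavone diet (median 0.09). On the conventional soybean diet 4 of 7 lay below 0 (median -0.10). In bulk liver RNA, fewer cells of a type and less RNA per cell cannot be told apart.

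Most synthetases differed little between the diets. A gene was called at an adjusted p under 0.05 in limma, with Benjamini-Hochberg adjustment over all 27702 probe sets. Of the 33, only Yars1 passed on the conventional soybean diet (1 of 33), where it was lower than on casein and none was higher, where 1.86% of all genes were called in either direction and 0.787% were called lower. On the 3:1 high-isoflavone diet 0 of 33 were called against casein (background 0.0594% of genes), and on the 1:1 high-isoflavone diet 0 of 33 (background 2.52%). Between the 1:1 high-isoflavone and the conventional soybean diet 0 of 33 were called (background 0.104%), and between the 1:1 and the 3:1 high-isoflavone diets 0 of 33 (background 0%). The mean of the 3 soybean diets against casein gave 1 of 33, again Yars1 and lower (background 2.49% in either direction, 0.965% lower). Each share is near the background, so none of these counts sets the synthetases apart from other genes. The 4 comparisons against casein share the same 5 casein rats and are not independent of each other.

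At an unadjusted p under 0.05 in limma, 4 of 33 synthetases differed on the 1:1 high-isoflavone diet against casein (17.5% of all genes), 2 on the 3:1 high-isoflavone diet (8.51%) and 4 on the conventional soybean diet (17.2%). Between the 1:1 high-isoflavone and the conventional soybean diet 6 did (7.29%), between the 1:1 and 3:1 high-isoflavone diets 0 did (7.45%), and for all soybean diets against casein 3 did (17.1%). The median difference of the 33 was 0.01 for the 1:1 high-isoflavone, 0.03 for the 3:1 high-isoflavone and -0.04 for the conventional soybean diet against casein, where the median over all genes was 0.03, 0.01 and 0.04 in the same order. The 95% interval of the difference lay within 0.5 log2 units of 0 for 28, 29 and 28 of the 33 in these 3 comparisons, against 60.7%, 68.8% and 60.3% of all genes. For these genes a change of more than 0.5 in either direction lies outside the interval. The plot of the differences against casein shows them all.

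**Figure D1:**
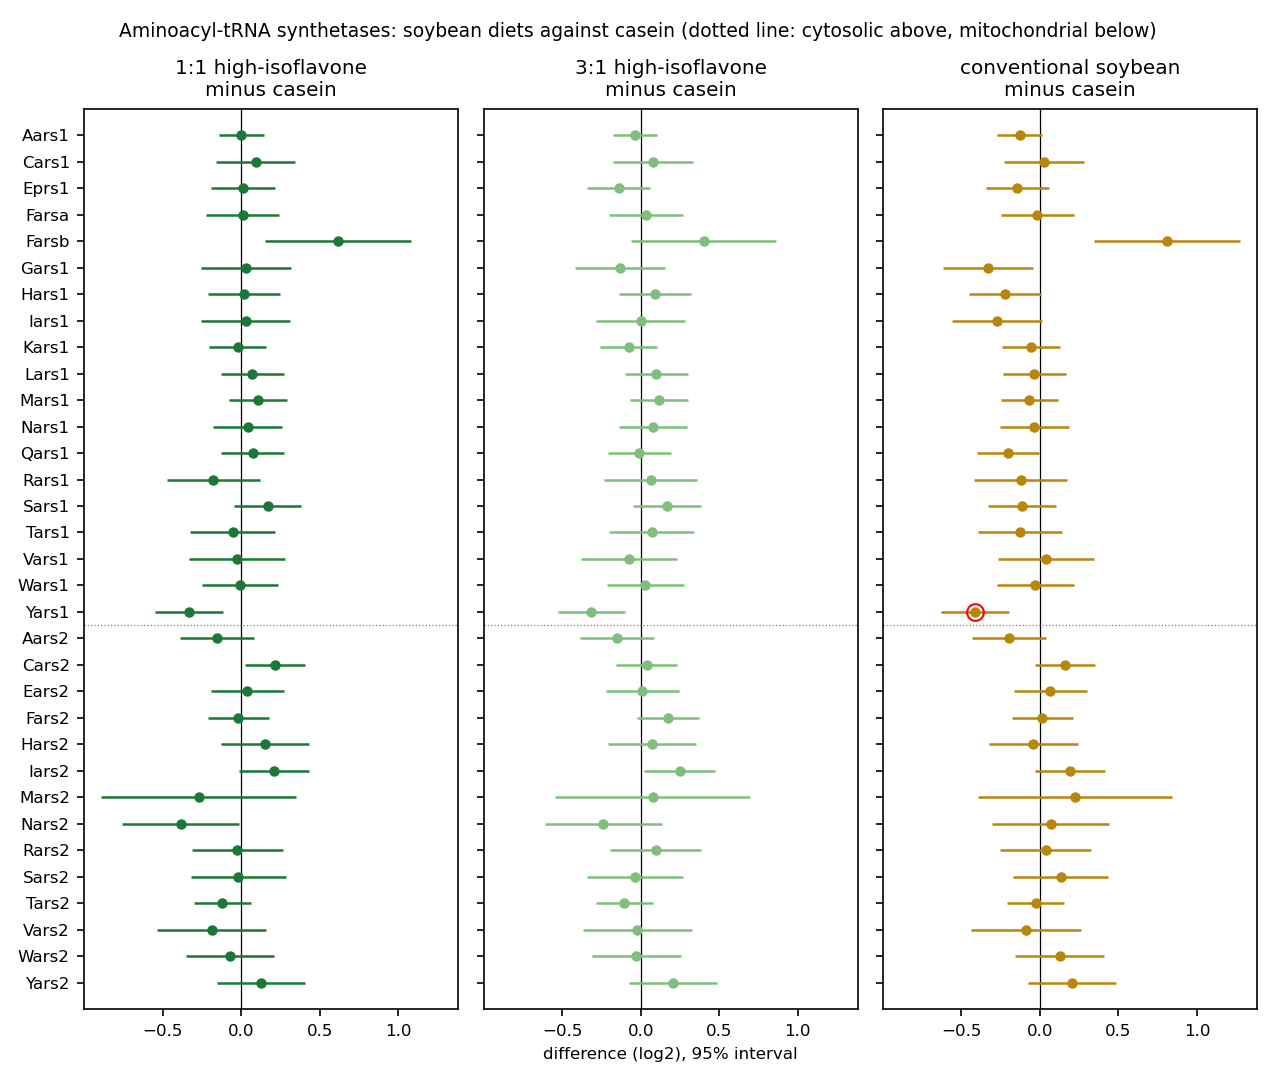
Difference in signal (log2, horizontal axis) of the 33 measured synthetases on the 1:1 high-isoflavone, 3:1 high-isoflavone and conventional soybean diets, each minus casein (5 rats per diet); points are the fitted differences, bars their 95% intervals, and a red ring marks an adjusted p under 0.05. A dotted line parts cytosolic from mitochondrial enzymes; Yars1 on the conventional soybean diet carries the only ring, at -0.42, and most intervals cross 0.

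Yars1 encodes the cytosolic enzyme that charges tyrosine, and its promoter window holds the core printed above. In the 1:1 high-isoflavone rats Yars1 was 3.79, 3.49, 3.68, 3.49 and 3.55, and in the 3:1 high-isoflavone rats 3.83, 3.56, 3.64, 3.59 and 3.48. The conventional soybean rats gave 3.74, 3.33, 3.39, 3.49 and 3.64, against 3.77, 3.74, 4.05, 4.12 and 3.99 in the casein rats. Every diet's rats overlapped the casein rats, although casein rats 3, 4 and 5 lay above all 15 rats on soybean. The means were 3.6 ± 0.13, 3.62 ± 0.128 and 3.52 ± 0.171 on the 1:1 high-isoflavone, 3:1 high-isoflavone and conventional soybean diets, against 3.93 ± 0.171 on casein (SD, n = 5 each). Yars1 fell by 0.42 on the conventional soybean diet against casein (a factor of 0.750, SE 0.104, adjusted p = 0.0454). Its difference was -0.31 on the 3:1 high-isoflavone diet (adjusted p = 0.371) and -0.34 on the 1:1 high-isoflavone diet (adjusted p = 0.0961). Neither passed, but the difference on the 1:1 high-isoflavone diet passed with each array centred on its median (adjusted p = 0.0414), quantile normalized (0.0369), or centred and scaled (0.0312). Over the 3 soybean diets it fell by 0.35 (SE 0.0846, adjusted p = 0.0301). The soybean diets lay close to each other, with differences of 0.08 for 1:1 high-isoflavone minus conventional soybean (-0.14 to 0.30, 95% interval) and -0.02 for 1:1 minus 3:1 high-isoflavone (-0.24 to 0.19). The call on the conventional diet ended in 12 of 20 fits that each left out 1 array: without casein rats 2, 3, 4 or 5, conventional soybean rats 2, 3, 4 or 5, 3:1 high-isoflavone rats 2 or 3, or 1:1 high-isoflavone rats 3 or 4 (adjusted p 0.0503 to 0.103). It also ended with only the arrays compared in the fit (adjusted p = 0.0929) and in eBayes without a mean-variance trend (0.0578). The call over all soybean diets ended without casein rat 3 (adjusted p = 0.0822), casein rat 4 (0.109) or casein rat 5 (0.0984), and both calls ended without the 2 arrays of higher floor (0.103 and 0.0797).

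Farsb encodes the beta subunit of the cytosolic enzyme for phenylalanine and had the largest difference of the 33, on the brighter of its 2 probe sets. The 1:1 high-isoflavone rats gave 4.30, 4.57, 3.63, 3.60 and 3.58 and the 3:1 high-isoflavone rats 4.00, 3.98, 3.87, 3.56 and 3.22. On the conventional soybean diet the values were 4.18, 4.29, 4.74, 3.56 and 3.91, against 3.69, 3.36, 2.85, 3.34 and 3.37 on casein. Casein rat 3 was lowest, and in each soybean diet some rats lay within the casein range. The difference was 0.61 on the 1:1 high-isoflavone diet (adjusted p = 0.156), 0.40 on the 3:1 high-isoflavone diet (adjusted p = 0.696) and 0.81 on the conventional soybean diet (SE 0.223, adjusted p = 0.0678), and none of them passed. Without conventional soybean rat 4 the last of these passed (adjusted p = 0.0439). On the dimmer probe set the differences were -0.09, 0.04 and 0.06 in the same order, so the probe sets of Farsb do not show the same difference. Farsa, the alpha subunit of the same enzyme, differed by 0.01, 0.03 and -0.02 from casein in that order.

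**Figure D2:**
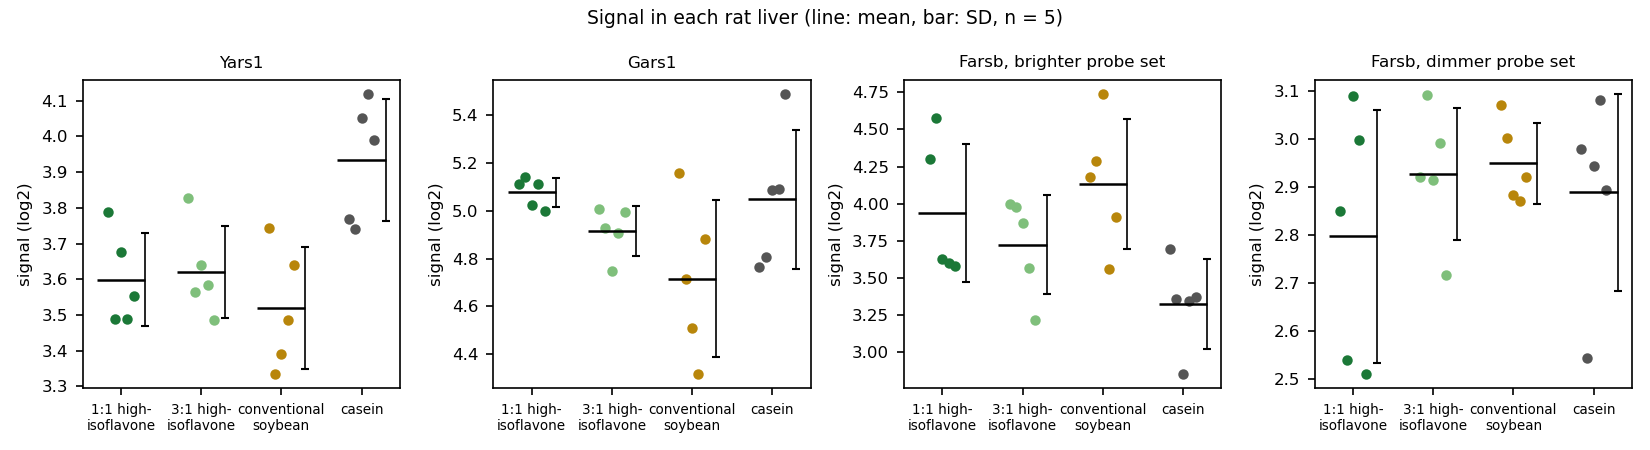
Signal (log2, vertical axis) of Yars1, Gars1 and both probe sets of Farsb in each rat, by diet; points are rats, lines means and bars SD (n = 5). Casein rats lie high for Yars1, and the brighter probe set of Farsb spreads widely while the dimmer one shows no separation of the diets.

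Among the cytosolic enzymes, 16 of 19 lay below 0 on the conventional soybean diet against casein (median -0.11), where 41.5% of all genes lay below 0 (median 0.04). The count was 18, 17 and 18 of 19 with each array centred on its median, quantile normalized, or centred and scaled. On the 3:1 high-isoflavone diet 7 of 19 lay below 0 (median 0.03) and on the 1:1 high-isoflavone diet 6 of 19 (median 0.02), but 13, 10 and 14 of 19 on the 1:1 diet under those scalings. All 7 enzymes of the multi-synthetase complex lay below 0 on the conventional soybean diet against casein, from -0.27 for Iars1 to -0.04 for Lars1 (median -0.12), under the deposited values and under all 3 other scalings. None of the 7 was called by its representative probe set. Among all 19 the only called gene was Yars1. The 19 enzymes were read in the same rats, so they are not separate observations of a diet. Their mean signal per rat was 3.97 ± 0.0835 on conventional soybean, against 4.04 ± 0.0917 on casein (SD, n = 5 each). The rats overlapped, from 3.86 to 4.05 on conventional soybean and from 3.89 to 4.12 on casein.

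The comparison of 1:1 high-isoflavone with conventional soybean uses the same 5 conventional soybean rats as the comparison above, so the opposite signs in the 2 are not separate observations. Of the 19 cytosolic enzymes 16 lay above 0 there (median 0.08), under the deposited values and the 3 other scalings, against 47.3% of all genes. Unadjusted, 5 cytosolic enzymes had p under 0.05 in limma, namely Qars1 for glutamine (difference 0.28, adjusted p = 0.519), Sars1 for serine (0.28, adjusted p = 0.565), Gars1 for glycine, Iars1 for isoleucine and Hars1 for histidine (0.24, adjusted p = 0.688). None passed the adjusted threshold. The second probe set of Hars1, 1395533_at (mean 2.66), had means of 2.62 on 1:1 high-isoflavone and 2.61 on conventional soybean.

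Gars1 charges glycine in the cytosol and also, from the same gene, in mitochondria. Values were 5.11, 5.14, 5.03, 5.11 and 5.00 on the 1:1 high-isoflavone diet and 5.01, 4.93, 4.75, 4.91 and 4.99 on the 3:1 high-isoflavone diet. For conventional soybean they were 5.16, 4.71, 4.51, 4.32 and 4.88, against 4.77, 4.81, 5.09, 5.09 and 5.49 on casein. Conventional soybean rats spread more than the 1:1 high-isoflavone rats, and 4 of them lay below every 1:1 high-isoflavone rat. The difference was 0.36 for 1:1 high-isoflavone minus conventional soybean (adjusted p = 0.587) and -0.33 for conventional soybean minus casein (adjusted p = 0.217). Gars1 had 1 further probe set, 1395730_at, near the bottom of the signal range at a mean of 0.62. Its means were 0.856, 0.0883 and 0.523 on 1:1 high-isoflavone, 3:1 high-isoflavone and conventional soybean, against 0.998 on casein. There every 3:1 high-isoflavone rat lay below every casein rat, as for 0.718% of all probe sets.

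Iars1 charges isoleucine and sits in the complex. By rat, Iars1 stood at 3.46, 3.05, 3.61, 3.59 and 3.50 on 1:1 high-isoflavone and 3.32, 3.45, 3.23, 3.47 and 3.61 on 3:1 high-isoflavone. Rats on conventional soybean had 3.30, 3.24, 2.85, 3.07 and 3.25, against 3.52, 2.99, 3.78, 3.51 and 3.27 in casein rats. The groups overlapped, with 1:1 high-isoflavone rat 2 and casein rat 2 low within their diets. The difference was 0.30 for 1:1 high-isoflavone minus conventional soybean (adjusted p = 0.683) and -0.27 for conventional soybean minus casein (adjusted p = 0.318). With the mean of both Iars1 probe sets that second value was 0.014, so its sign depends on the probe set.

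Rars1, the arginine enzyme of the complex, entered by its difference between the shares of high-isoflavone soybean. Rars1 read 3.01, 2.48, 2.90, 2.76 and 2.88 in the 1:1 high-isoflavone rats and 3.07, 2.99, 3.04, 3.41 and 2.73 in the 3:1 high-isoflavone rats. It read 2.45, 2.87, 2.99, 3.23 and 2.76 in the conventional soybean rats, against 3.09, 2.73, 2.85, 3.15 and 3.11 in the casein rats. The groups overlapped, and the difference was -0.24 for 1:1 minus 3:1 high-isoflavone (adjusted p = 0.752). Most other cytosolic enzymes differed little from casein. Aars1, Cars1, Kars1, Lars1, Mars1, Nars1, Sars1, Tars1, Vars1 and Wars1, which charge alanine, cysteine, lysine, leucine, methionine, asparagine, serine, threonine, valine and tryptophan, differed from casein by -0.13 to 0.17 across the 3 soybean diets on their representative probe sets, with no call. This range does not cover their dimmer probe sets. Cars1 on 1391572_at had means of 1.53, 1.65 and 1.61 on 1:1 high-isoflavone, 3:1 high-isoflavone and conventional soybean, against 1.90 on casein. Hars1 for histidine and Qars1 for glutamine differed by -0.22 and -0.20 on the conventional soybean diet (adjusted p = 0.314 and 0.282). The second probe set of Hars1 had a mean of 2.61 on that diet, against 2.72 on casein.

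Eprs1 encodes the enzyme that charges both glutamate and proline, and its 4 probe sets disagreed. The brightest probe set, 1373418_at, which stands for the gene above, showed no called difference. In the 1:1 high-isoflavone rats its signal was 5.35, 5.57, 5.71, 5.74 and 5.54, and in the 3:1 high-isoflavone rats 5.32, 5.45, 5.38, 5.55 and 5.43. The conventional soybean rats gave 5.10, 5.50, 5.62, 5.48 and 5.42, against 5.45, 5.58, 5.49, 5.78 and 5.55 in the casein rats. The second, 1383455_at, overlapped across all diets as well. The 1:1 high-isoflavone rats gave 4.90, 5.11, 5.31, 5.31 and 5.17 and the 3:1 high-isoflavone rats 5.12, 5.20, 5.11, 5.18 and 5.13. On the conventional soybean diet the values were 4.67, 4.98, 5.26, 4.98 and 5.21, against 5.03, 5.16, 5.18, 5.52 and 5.14 on casein. On these 2 probe sets the differences from casein lay between -0.19 and 0.01 over the 3 soybean diets, and the 95% intervals for the 1:1 high-isoflavone diet were -0.19 to 0.21 and -0.27 to 0.18.

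The third probe set, 1382040_at, separated some of the diets. It was dim, with a mean of 1.69 against a median of 2.48 over all probe sets. Values were 1.31, 1.01, 1.09, 0.87 and 1.02 on the 1:1 high-isoflavone diet and 1.80, 1.51, 0.99, 1.26 and 1.0 on the 3:1 high-isoflavone diet. For conventional soybean they were 2.14, 2.14, 2.24, 1.40 and 1.83, against 2.44, 2.12, 1.96, 2.85 and 2.86 on casein. All 5 rats of the 1:1 high-isoflavone diet lay below all casein rats and below all conventional soybean rats, and all 5 of the 3:1 high-isoflavone diet lay below all casein rats. Probe sets whose groups did not overlap, in that direction, made up 2.08%, 0.83% and 0.718% of all probe sets for 1:1 high-isoflavone against casein, 1:1 high-isoflavone against conventional soybean and 3:1 high-isoflavone against casein. Its means were 1.06 ± 0.163, 1.31 ± 0.349 and 1.95 ± 0.345 on the 1:1 high-isoflavone, 3:1 high-isoflavone and conventional soybean diets, against 2.45 ± 0.411 on casein (SD, n = 5 each). The signal fell by 1.39 on the 1:1 high-isoflavone diet against casein (a factor of 0.383, SE 0.199, adjusted p = 0.000667, background 1.07% of probe sets called lower). It fell by 1.13 on the 3:1 high-isoflavone diet (SE 0.199, adjusted p = 0.0385, background 0.018% lower) and by 1.01 over all soybean diets (adjusted p = 0.00266, background 0.841% lower). The conventional soybean diet differed by -0.50 (adjusted p = 0.203), and 1:1 high-isoflavone minus conventional soybean was -0.89 (adjusted p = 0.121), both short of the threshold. Between 1:1 and 3:1 high-isoflavone the difference was -0.25 (-0.67 to 0.16, 95% interval).

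The calls of this probe set on the 1:1 high-isoflavone diet and over all soybean diets held in all 20 fits that left out 1 array. That on the 3:1 high-isoflavone diet ended in 10 of the 20 (adjusted p 0.0519 to 0.151): without casein rats 2, 4 or 5, conventional soybean rats 2 or 5, 3:1 high-isoflavone rats 2, 3, 4 or 5, or 1:1 high-isoflavone rat 3. It also ended without the 2 arrays of higher floor (adjusted p = 0.0805), without rat 1 of every diet (0.0503), with only the arrays compared in the fit (0.120) and in eBayes without a trend (0.0559). The dimmest probe set of Eprs1, 1382648_at, followed neither pattern. By rat, its signal stood at 1.18, 1.18, 0.83, 1.15 and 0.67 on 1:1 high-isoflavone and 0.85, -0.73, 0.11, 0.85 and 0.49 on 3:1 high-isoflavone. Rats on conventional soybean had 1.31, 0.97, 0.41, 1.27 and 0.75, against 0.90, 1.43, 1.24, 0.12 and 1.59 in casein rats. Its groups overlapped and its differences from casein were -0.06, -0.74 and -0.11 for 1:1 high-isoflavone, 3:1 high-isoflavone and conventional soybean, with no call. Where the probes of each set lie in the Eprs1 transcript was not examined here.

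**Figure D3:**
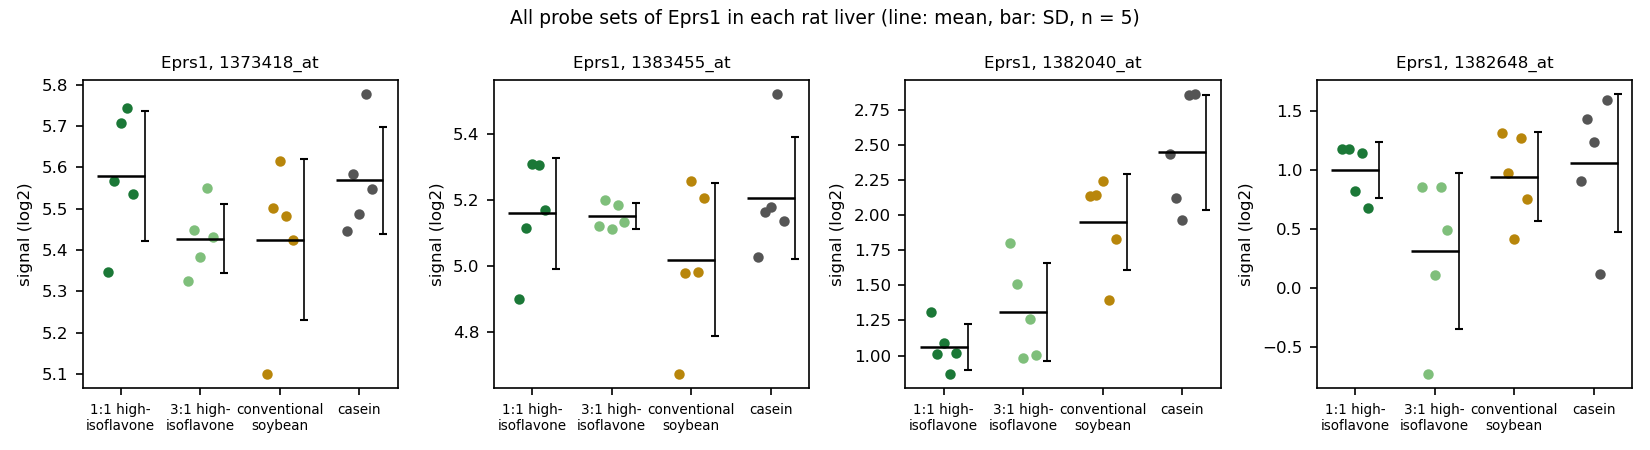
Signal (log2, vertical axis, own range in each panel) of the 4 probe sets of Eprs1 in each rat by diet, brightest panel left; points are rats, lines means and bars SD (n = 5). Only 1382040_at separates some of the diets, with all 1:1 high-isoflavone rats below all conventional soybean and all casein rats. Conventional soybean rats overlap the casein rats there.

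The mitochondrial enzymes are encoded in the nucleus and charge the transfer RNAs of the mitochondrial genome. None of the 14 measured was called in any comparison. Their probe sets were dimmer, with 4 of 14 above the median signal of all probe sets (2.48) against 19 of 19 for the cytosolic enzymes, and a dim probe set limits what can be seen. The median SD within a diet was 0.205 for the mitochondrial enzymes and 0.161 for the cytosolic ones, against 0.218 over all genes. On the conventional soybean diet against casein 10 of 14 lay above 0 as deposited, but 6, 7 and 7 of 14 with the arrays centred, quantile normalized, or centred and scaled, so their direction depends on the scaling.

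Nars2, the mitochondrial asparagine enzyme, had the most negative difference of the 33 on the 1:1 high-isoflavone diet. Nars2 read 2.05, 2.48, 2.63, 2.32 and 2.41 in the 1:1 high-isoflavone rats and 2.38, 2.21, 3.14, 2.46 and 2.44 in the 3:1 high-isoflavone rats. It read 2.61, 2.64, 3.25, 2.71 and 2.94 in the conventional soybean rats, against 2.18, 3.05, 2.81, 2.76 and 3.03 in the casein rats. Casein rat 1 lay low and 3:1 high-isoflavone rat 3 high within their diets, and the groups overlapped. The difference was -0.39 on the 1:1 high-isoflavone diet against casein (adjusted p = 0.28) and -0.45 for 1:1 high-isoflavone minus conventional soybean (adjusted p = 0.61). Iars2, which charges isoleucine in mitochondria, differed in the other direction. In the 1:1 high-isoflavone rats Iars2 was 3.05, 3.15, 3.14, 3.20 and 3.05, and in the 3:1 high-isoflavone rats 3.03, 3.07, 3.49, 3.13 and 3.07. The conventional soybean rats gave 3.07, 2.86, 3.32, 3.0 and 3.26, against 2.80, 3.13, 3.0, 2.84 and 2.77 in the casein rats. Casein rats 2 and 3 lay within the range of the 15 soybean rats, and the other 3 casein rats lay below it. The difference was 0.21, 0.25 and 0.19 on the 1:1 high-isoflavone, 3:1 high-isoflavone and conventional soybean diets, with adjusted p from 0.342 to 0.563, and none passed.

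Mars2, for mitochondrial methionine, had the highest SD within a diet of the 33 (0.511). The 1:1 high-isoflavone rats gave 1.12, 0.72, 0.76, 1.03 and 1.03 and the 3:1 high-isoflavone rats 2.28, 0.28, 1.35, 1.15 and 1.35. On the conventional soybean diet the values were 0.38, 1.78, 1.84, 1.96 and 1.17, against 1.09, 1.65, 1.11, 1.21 and 0.97 on casein. Conventional soybean and 3:1 high-isoflavone rats spread over the whole range of the other diets, and 1:1 high-isoflavone minus conventional soybean was -0.49 (-1.11 to 0.13, 95% interval, adjusted p = 0.782). Fars2, the mitochondrial phenylalanine enzyme, entered by its difference between the shares of high-isoflavone soybean. Values were 2.26, 2.23, 2.34, 2.54 and 2.49 on the 1:1 high-isoflavone diet and 2.53, 2.61, 2.69, 2.43 and 2.56 on the 3:1 high-isoflavone diet. For conventional soybean they were 2.35, 2.45, 2.18, 2.52 and 2.53, against 2.40, 2.55, 2.37, 2.34 and 2.30 on casein. The groups overlapped, and 1:1 minus 3:1 high-isoflavone was -0.19 (adjusted p = 0.694). Cars2, for mitochondrial cysteine, was the only one of the 33 representative probe sets without overlap in any of the 6 comparisons. By rat, Cars2 stood at 3.27, 3.44, 3.19, 3.29 and 3.23 on 1:1 high-isoflavone and 2.98, 3.11, 3.12, 3.16 and 3.17 on 3:1 high-isoflavone. Rats on conventional soybean had 3.28, 3.22, 3.18, 3.28 and 3.19, against 2.94, 3.08, 3.12, 2.83 and 3.38 in casein rats. All 5 rats of the 1:1 high-isoflavone diet lay above all 5 of the 3:1 high-isoflavone diet, as for 0.587% of all genes, with a difference of 0.18 (SE 0.0932, adjusted p = 0.723). The other mitochondrial enzymes, Aars2, Ears2, Hars2, Rars2, Sars2, Tars2, Vars2, Wars2 and Yars2 (alanine, glutamate, histidine, arginine, serine, threonine, valine, tryptophan and tyrosine), differed from casein by -0.20 to 0.21 over the 3 soybean diets on their representative probe sets. Yars2, the mitochondrial counterpart of Yars1, differed by 0.13, 0.21 and 0.20 on the 1:1 high-isoflavone, 3:1 high-isoflavone and conventional soybean diets (adjusted p from 0.456 to 0.761).

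Synthetases split into class I and class II by the fold of the catalytic domain. Of 17 measured class I enzymes 9 lay above 0 on the 1:1 high-isoflavone diet against casein, 12 on the 3:1 high-isoflavone diet and 9 on the conventional soybean diet (medians 0.03, 0.04 and 0.02). Of 15 class II enzymes 8, 8 and 4 lay above 0 in the same order (medians 0.00, 0.03 and -0.04), with no called gene. Eprs1 holds domains of both classes and is counted in neither.

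From rat to rat within a diet, the 7 genes with the core in their promoter window had a higher median correlation than the others. Over the deviations of 20 rats from their diet's mean, the median Pearson r of their 21 pairs was 0.397 (Spearman rho 0.316), with 20 of 21 pairs above 0 and a range from -0.064 to 0.723. Among the 24 measured synthetases with a window and no core the median r of 276 pairs was -0.018 (rho -0.009), with 127 pairs above 0. For the 13 ATF4 targets it was 0.229 over 78 pairs (0.204 after quantile normalization, 0.245 without rat 1 of each diet). It was -0.018 for the other 6 cytosolic enzymes, -0.006 for the mitochondrial enzymes and 0.01 over all genes. All pairs share the same 20 arrays and the 7 genes were picked by their sequence, so these are descriptions with no test. The 24 without the core include all 14 measured mitochondrial enzymes. Of these 14, 4 lay above the median signal of all probe sets, against 19 of 19 cytosolic enzymes. The part of signal level in the correlations was not tested.

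Against the diets the same 7 genes showed little. Their median difference from casein was 0.03 on the 1:1 high-isoflavone, 0.07 on the 3:1 high-isoflavone and -0.13 on the conventional soybean diet, against 0.00, 0.03 and 0.00 for the 24 without the core. Of the 7, 6 lay below 0 on the conventional soybean diet, against 12 of 24 of the others. For 1:1 high-isoflavone minus conventional soybean 7 of 7 lay above 0, from 0.07 to 0.30 (median 0.08), against 12 of 24. Yars1 was the only called gene in either set. All 7 are cytosolic, while the 24 include all 14 measured mitochondrial enzymes. On the conventional soybean diet against casein, 16 of 19 cytosolic and 4 of 14 mitochondrial enzymes lay below 0. For 1:1 high-isoflavone minus conventional soybean, 16 of 19 and 4 of 14 lay above 0. The contrast of the 7 with the 24 is therefore also one of cytosolic with mitochondrial enzymes.

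**Figure D4:**
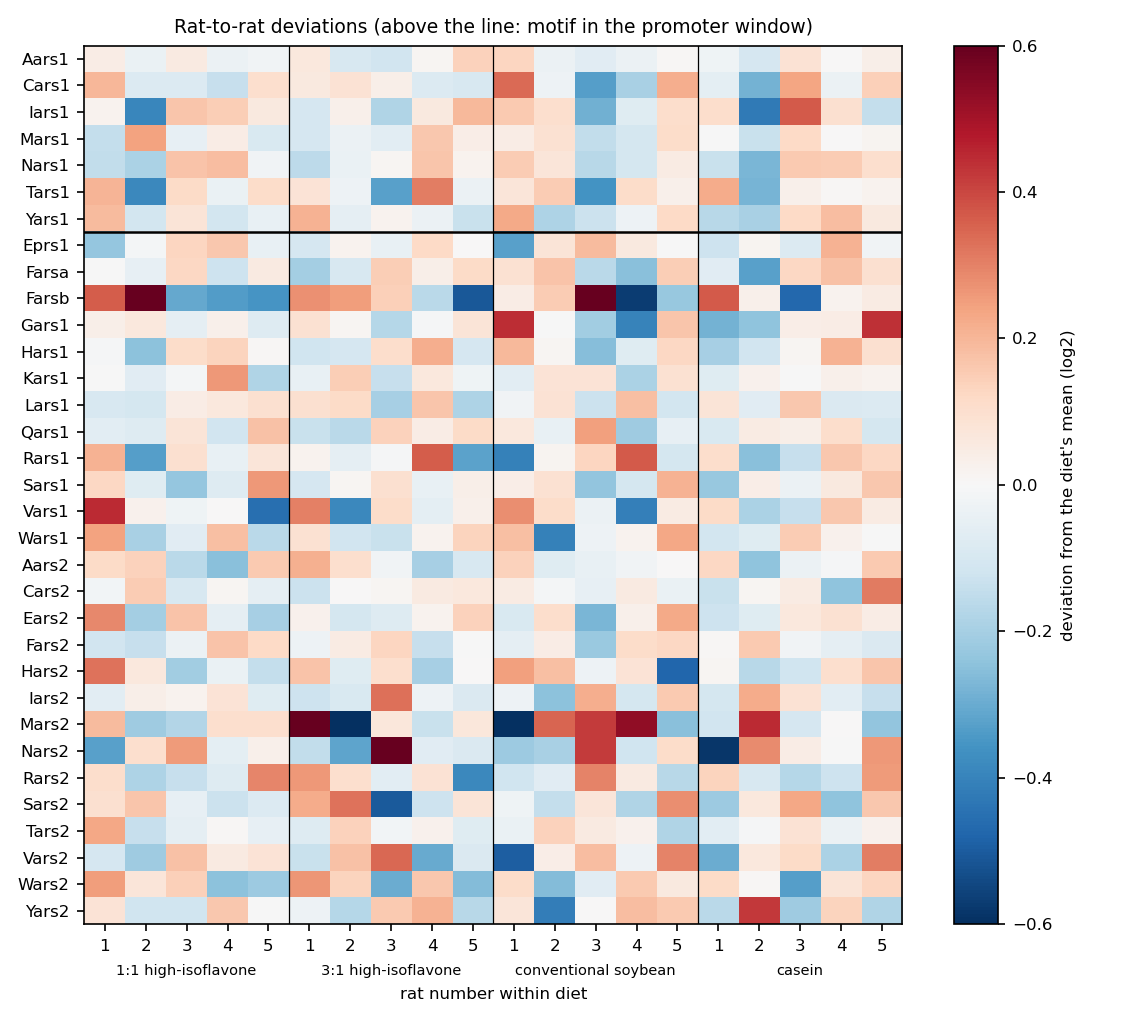
Deviation of each synthetase from its diet's mean (log2, colour, cut at 0.6 in both directions) in the 20 rats (columns, by diet and rat number); the 7 rows above the line hold the core in their promoter window. In these 7 rows conventional soybean rat 3 and casein rat 2 are mostly blue, while the rows below, which include Gars1 and Rars1 with no window, differ in colour within a rat.

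Genes of the response to uncharged transfer RNA were read beside the synthetases, as a list of 13 with the sensor GCN2, ATF4 and their known targets. Against casein, 3 of 13 were called on the conventional soybean diet, Eif2ak4 and Atf5 lower and Ppp1r15a higher (background 0.787% of genes lower and 1.08% higher). On the 3:1 high-isoflavone diet 0 were called, on the 1:1 high-isoflavone diet 1, Eif2ak4, lower (background 1.2% lower), and over all soybean diets 2, Eif2ak4 lower and Ppp1r15a higher (background 0.965% lower and 1.53% higher). The other 10 genes, with Atf4 itself, Ddit3, Trib3, Sesn2, Chac1, Atf3, Eif2s1, and the amino acid synthesis genes Asns, Psat1 and Phgdh, were called in no comparison. Atf4 differed by -0.15, -0.10 and -0.11 from casein on the 1:1 high-isoflavone, 3:1 high-isoflavone and conventional soybean diets.

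Eif2ak4 encodes GCN2, the kinase that binds uncharged transfer RNA. Eif2ak4 read 2.52, 2.29, 2.73, 2.62 and 3.09 in the 1:1 high-isoflavone rats and 2.91, 3.01, 2.61, 2.81 and 3.03 in the 3:1 high-isoflavone rats. It read 2.52, 2.78, 2.43, 2.72 and 2.40 in the conventional soybean rats, against 3.25, 3.24, 3.25, 3.35 and 3.23 in the casein rats. All 15 rats on soybean lay below all 5 casein rats, which were close together. Groups did not overlap in that direction for 0.193% of all genes over the 3 soybean diets, and for 2.44%, 0.794% and 1.87% on the 1:1 high-isoflavone, 3:1 high-isoflavone and conventional soybean diets. The means were 2.65 ± 0.296, 2.88 ± 0.173 and 2.57 ± 0.169 on the 1:1 high-isoflavone, 3:1 high-isoflavone and conventional soybean diets, against 3.26 ± 0.0503 on casein (SD, n = 5 each). Eif2ak4 fell by 0.70 on the conventional soybean diet (a factor of 0.617, SE 0.124, adjusted p = 0.00722) and by 0.61 on the 1:1 high-isoflavone diet (adjusted p = 0.0109). The difference on the 3:1 high-isoflavone diet was -0.39 (adjusted p = 0.341), and over all soybean diets the level fell by 0.57 (SE 0.102, adjusted p = 0.00468). These 3 calls held in all 20 fits that left out 1 array, and the one on the 1:1 high-isoflavone diet ended without rat 1 of every diet (adjusted p = 0.0636).

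Ppp1r15a encodes GADD34, which directs a phosphatase to eIF2 and so undoes the action of GCN2. In the 1:1 high-isoflavone rats Ppp1r15a was 3.91, 4.38, 3.96, 3.95 and 3.95, and in the 3:1 high-isoflavone rats 3.92, 3.71, 4.15, 3.89 and 4.07. The conventional soybean rats gave 4.20, 4.28, 4.11, 4.01 and 4.05, against 3.58, 3.82, 3.55, 3.84 and 3.46 in the casein rats. All 1:1 high-isoflavone and conventional soybean rats lay above the casein rats, as for 2.63% and 3.1% of all genes, and the 3:1 high-isoflavone rats overlapped them. It rose by 0.48 on the conventional soybean diet (SE 0.109, adjusted p = 0.0291) and by 0.39 over all soybean diets (adjusted p = 0.025), against 0.38 on the 1:1 high-isoflavone diet (adjusted p = 0.0699). The call on the conventional diet ended without casein rats 1, 3 or 5 or conventional soybean rats 1, 2, 3 or 5 (adjusted p 0.0521 to 0.0883), and that over all soybean diets without casein rats 1, 3 or 5 (0.0604 to 0.104). Both ended without the 2 arrays of higher floor (0.0994 and 0.120) and without rat 1 of every diet (0.103 and 0.0887).

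Atf5 encodes a transcription factor related to ATF4 that is abundant in liver. The 1:1 high-isoflavone rats gave 6.88, 7.16, 7.04, 6.95 and 6.83 and the 3:1 high-isoflavone rats 6.96, 6.87, 6.98, 6.77 and 7.07. On the conventional soybean diet the values were 6.39, 6.70, 6.54, 6.40 and 6.74, against 6.88, 6.96, 7.02, 6.81 and 7.09 on casein. All conventional soybean rats lay below the casein rats, as for 1.87% of genes, and below the 1:1 high-isoflavone rats, as for 0.624%. Atf5 fell by 0.39 on the conventional soybean diet against casein (SE 0.0876, adjusted p = 0.0257) and differed by 0.02 and -0.02 on the 1:1 and 3:1 high-isoflavone diets. The test of 1:1 high-isoflavone minus conventional soybean gave 0.42 (adjusted p = 0.078), short of the threshold. The call ended without casein rats 2, 3 or 5 or conventional soybean rats 1, 3 or 4 (adjusted p 0.0575 to 0.0793), without the 2 arrays of higher floor (0.0902), without rat 1 of every diet (0.0802), and with only the arrays compared in the fit (0.0572).

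**Figure D5:**
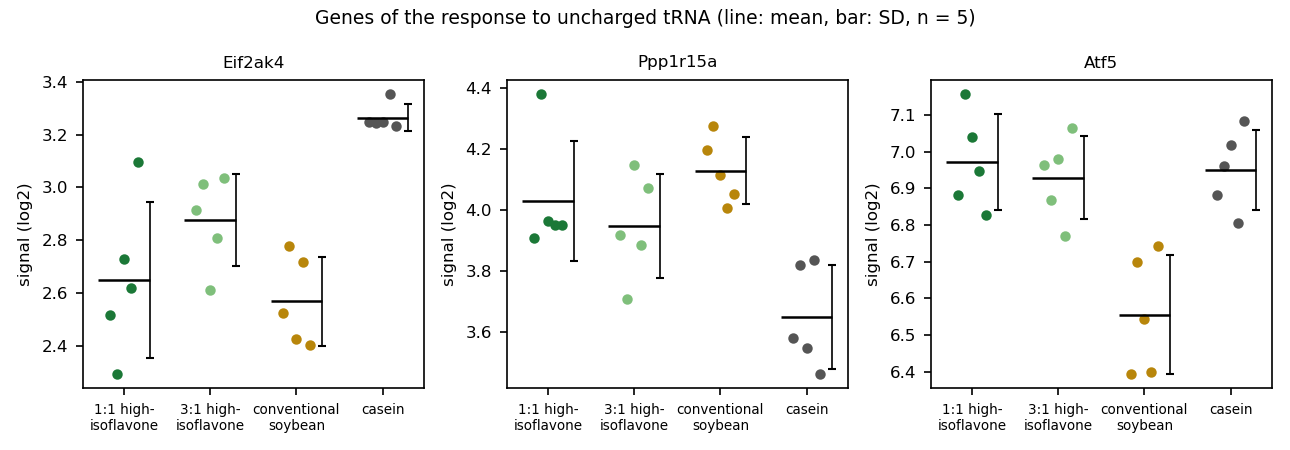
Signal (log2, vertical axis, own range in each panel) of Eif2ak4, Ppp1r15a and Atf5 in each rat by diet; points are rats, lines means and bars SD (n = 5). All soybean rats lie below the casein rats for Eif2ak4, and the conventional soybean rats lie lowest for Atf5.

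Genes that work next to the synthetases gave no call in any of the 6 comparisons. The scaffold proteins of the complex, Aimp1, Aimp2 and Eef1e1, differed by -0.31, 0.10 and -0.44 on the 1:1 high-isoflavone diet against casein, with the lowest adjusted p, 0.0868, for Eef1e1. The 6 elongation factors listed, which carry charged transfer RNA to the ribosome or recharge the carrier, differed from casein by -0.30 to 0.07 over the 3 soybean diets. The 4 genes of mitochondrial transamidation and formylation, which finish glutaminyl and formyl-methionyl transfer RNA, lay between -0.32 and 0.11. The 4 genes of editing and deacylation, which remove wrongly attached amino acids, lay between -0.20 and 0.22, and the 5 genes of selenocysteine transfer RNA between -0.20 and 0.51.

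Markers of the liver's cell types were read for the same rats. Of 7 hepatocyte markers Tat, a tyrosine-degrading enzyme, was lower on the 1:1 high-isoflavone diet (-1.25, adjusted p = 0.0331) and the conventional soybean diet (-1.20, adjusted p = 0.0487). In fits that left out 1 array, the first of these calls ended in 5 of 20 and the second in 14 of 20. Both ended without rat 1 of every diet (adjusted p = 0.0825 and 0.0799), and the second also with only the arrays compared (0.0770) and in eBayes without a trend (0.0641). Of 3 bile duct markers Epcam, an epithelial adhesion protein, was lower on the 1:1 high-isoflavone (-0.95, adjusted p = 0.00251) and conventional soybean diets (-0.71, adjusted p = 0.0257). Epcam was also lower over all soybean diets (-0.76, adjusted p = 0.00319), a call that held in all 20 fits that left out 1 array. Krt19, a keratin, was higher over all soybean diets (0.97, adjusted p = 0.0391), while Krt7 was not called. Of all genes, 1.2% were called lower on the 1:1 high-isoflavone and 0.787% on the conventional soybean diet. Over all soybean diets 0.965% were called lower and 1.53% higher. Leaving out 1 array ended the Epcam call on the conventional soybean diet in 5 of 20 fits and the Krt19 call in 10 of 20. That Epcam call also ended with only the arrays compared (adjusted p = 0.0521) and without rat 1 of every diet (0.0589), and the Krt19 call with arrays centred (0.0559), quantile normalized (0.0530) and in eBayes without a trend (0.0507). Without the 2 arrays of higher floor both Tat calls, the Krt19 call and the Epcam call on the conventional soybean diet ended (adjusted p 0.0691 to 0.126), while the Epcam call on the 1:1 high-isoflavone diet did not. None of 4 macrophage, 4 endothelial, 5 stellate, 3 lymphocyte and 4 pancreas markers was called in any comparison. The part of these cells in the differences of Yars1, Eprs1 and Eif2ak4 was not tested.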

How the data were processed

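Liver RNA of 20 rats, 5 on each of 4 diets, was read on 1 array each, with biotin-labelled RNA made by 3′ in vitro transcription, per the labels' protocols. The deposited values had been normalized by the SuperNORM data service, per the labels, and were read here as log10 signals. No source used here states the base of the logarithm: it was taken from the spike-in controls, whose signal rose with a slope of 0.997 ± 0.0242 per factor of 10 in amount (SD over 20 arrays, 9 probe sets). Values were multiplied by 3.3219 to give log2. Precision is set by the 5 arrays of each diet.

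The table has 31099 rows. After 57 control probe sets and 3342 without values were left out (2 were both), 27702 were tested. Of these, 19157 carry 1 gene symbol in the platform annotation, 394 several and 8151 none, and genes were named only where there was 1. limma 3.58.1 in R 4.3.3 (lmFit, then eBayes with a mean-variance trend) fitted 1 mean per diet to all 20 arrays, and 6 comparisons were taken from it. Adjusted p-values are Benjamini-Hochberg over all 27702 probe sets in each comparison, with calls under 0.05. The fit was tested on simulated data.

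Values in every array are given for members called in any comparison, for the 4 with the largest absolute difference in each, and for all probe sets of Eprs1; called genes of the other lists are named, and the rest are given by counts and range. Cars2 and some others were named beside this rule after their values were seen. The members, lists and tests were chosen with earlier results of these data known. The labels give no pairing of same-numbered rats across diets, and the numbers were not taken as pairs: of 30 pairs of same-numbered rats, 12 had a correlation of deviations from the diet means over 0.1 (range -0.163 to 0.401). All 6 pairs of number 1 were among these (0.203 to 0.401), so calls were also taken without rat 1 of every diet. Alternatives were other scalings, a filter on dim probe sets, other fits, arrays left out and the mean of a gene's probe sets. The promoter sequence of Aars1 is not reported here.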

Additional observations from a re-analysis of the deposited data

Results flagged for a closer look

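In 156 groups of 5 rats, 7 had 1 rat set apart from the other 4 by more than 0.71 of the group's range, Dixon's 95% limit, which chance passes in about 1 group in 20. Among the synthetases, Iars1 read 3.05 in 1:1 high-isoflavone rat 2, against 3.46 to 3.61 in the other 4. Tars1 read 4.77 in conventional soybean rat 3, against 5.16 to 5.28. Iars2 read 3.49 in 3:1 high-isoflavone rat 3, against 3.03 to 3.13, and Nars2 read 3.14 in the same rat, against 2.21 to 2.46. Wars2, the mitochondrial tryptophan enzyme, read 1.97 in casein rat 3, against 2.30 to 2.43. Eif2ak4 read 3.35 in casein rat 4, against 3.23 to 3.25, and Ppp1r15a read 4.38 in 1:1 high-isoflavone rat 2, against 3.91 to 3.96.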

How the results depend on the processing

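The count of synthetases called on the conventional soybean diet against casein (1) was 0 with only the arrays compared, 0 in eBayes without a trend, 0 without the 2 arrays of higher floor and 2 with the replicate block. Over all soybean diets (1) it was 2 with the replicate block, 2 with the mean of a gene's probe sets (Eprs1 and Yars1) and 0 without those 2 arrays. The Eprs1 mean takes in 4 probe sets that disagreed, of which only the dim 1382040_at was called by itself (-1.01 over all soybean diets). On the 1:1 high-isoflavone diet (0) the count was 1, Yars1, under each of the 3 other scalings (adjusted p = 0.0414, 0.0369 and 0.0312). With the mean of probe sets it was 1, Eprs1, on the 1:1 high-isoflavone diet and also on the 3:1 high-isoflavone diet (0). The replicate block added Farsb to Yars1 (adjusted p = 0.0336 for conventional soybean and 0.0425 for all soybean diets) and ended no call of a gene named here. The median difference of the 33 on the conventional soybean diet was -0.105 with arrays centred, -0.0995 quantile normalized and -0.112 centred and scaled. On the 1:1 high-isoflavone diet it was -0.0388 centred and -0.0565 centred and scaled, and over all soybean diets -0.0499 centred and scaled. Iars1 on the conventional soybean diet turned to 0.014 with the mean of its probe sets.

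Leaving out 1 array gave 0 to 1 called synthetases for conventional soybean and for all soybean diets, and 0 in the other comparisons. The medians then ran from -0.0244 to 0.0404 (1:1 high-isoflavone), 0.000776 to 0.0568 (3:1 high-isoflavone), -0.0598 to -0.00607 (conventional soybean) and -0.0346 to 0.0118 (all soybean) against casein, 0.0121 to 0.0649 for 1:1 high-isoflavone minus conventional soybean, and -0.0331 to 0.00608 for 1:1 minus 3:1 high-isoflavone. The cause of these shifts was not tested. Of the other settings for single genes and probe sets, 337 kept the call and direction, 29 lost a call, 5 gained one and 1 reversed. Counts over all probe sets also moved. Without the 2 arrays of higher floor they were 312 (613) on the 1:1 high-isoflavone, 4 (11) on the 3:1 high-isoflavone and 114 (453) on the conventional soybean diet and 212 (593) over all soybean diets against casein, with the count from all arrays in parentheses. Without rat 1 of every diet they were 380 for the 1:1 and 6 for the 3:1 high-isoflavone diet, and 13 (21) for 1:1 high-isoflavone minus conventional soybean. That count was 13 with arrays centred and scaled and 12 with only the arrays compared. The count for the 3:1 high-isoflavone diet ran from 3 to 23 over the other scalings, the filter and the other fits. Leaving out 1 array gave 296 to 716 (1:1 high-isoflavone), 1 to 26 (3:1 high-isoflavone), 120 to 499 (conventional soybean) and 230 to 719 (all soybean) against casein, 11 to 31 for 1:1 high-isoflavone minus conventional soybean and 0 to 1 for 1:1 minus 3:1 high-isoflavone. Dim probe sets, most of the mitochondrial enzymes among them, limit what could be seen.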
